A study of Drosophila melanogaster with 4 samples.

Results

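The genes described here encode subunits of the mitochondrial respiratory chain and ATP synthase. They were chosen by name, as genes with 1 symbol in the platform annotation whose current fly symbol begins with ND-, UQCR, COX or ATPsyn, or is SdhA, SdhB, SdhC or SdhD. Clones of 37 such genes were spotted on the array, and 23 of these genes had a value on at least 1 array, among 3769 named genes with a value in all. Ethosuximide, an anticonvulsant known to block T-type calcium channels, was fed to unmated Oregon-R wild-type males at 3.48 mg/ml in the food for 3 days from an age of 10 to 11 days. Unmated Oregon-R males of the same age were kept on normal food for the same time, with 30 flies in a vial in both groups. RNA came from pools of whole heads, so each value is an average over all cell types of the head. Each of 4 spotted 2-colour cDNA arrays set 1 pool of drug-fed flies against 1 pool on normal food and is 1 biological replicate.

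The respiratory chain lies in the inner mitochondrial membrane. Complex I takes electrons from NADH and complex II takes them from succinate. Complex III passes them to cytochrome c and complex IV to oxygen, and the proton gradient built on the way drives ATP synthase, also called complex V. Neurons, photoreceptors and muscle, all present in the head, depend heavily on this pathway. All members described here are encoded in the nucleus.

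The deposited value of a spot is a ratio of the 2 dyes, read here as log2 of Cy5 over Cy3. The drug sample carried Cy5 on arrays 1 and 2 and Cy3 on arrays 3 and 4, so the sign was turned on arrays 3 and 4 to give drug over normal food. The log base and the numerator are not stated in the sources used here, so the direction is unsettled, and each sign below holds under this reading only. With Cy3 over Cy5 on all arrays, every sign below would reverse. If the swapped columns had been turned before deposit, the values of arrays 3 and 4 below would change sign and those of arrays 1 and 2 would not. After turning, the array medians over the 967 genes and unnamed clones with a value on at least 3 arrays were 0.74, 0.16, -0.24 and -0.63 on arrays 1 to 4. Each array was centred on this median, so a centred log2 ratio of 0 is that of the typical feature. In the limma test given below, 13 of these 967 features (1.34%) passed with arrays 3 and 4 turned. With no array turned 0 (0%) passed, also after centring. Which reading holds was not tested. With no more than 4 arrays, precision is limited throughout.

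A larger share of respiratory chain genes than of all named genes had values on at least 3 arrays. Of the 37 genes, 11 (29.7%) had a value on at least 3 arrays, against 515 of all 6793 named genes (7.58%). On array 3 the share was 37.8% of the members against 8.61% of all genes, and on array 4 it was 29.7% against 6.01%. On array 1, where the most spots passed, the shares were closer, at 48.6% and 45.5%. The filters required a signal above background, and the ratios carry no level, so brightness itself could not be compared.

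**Figure D1:**
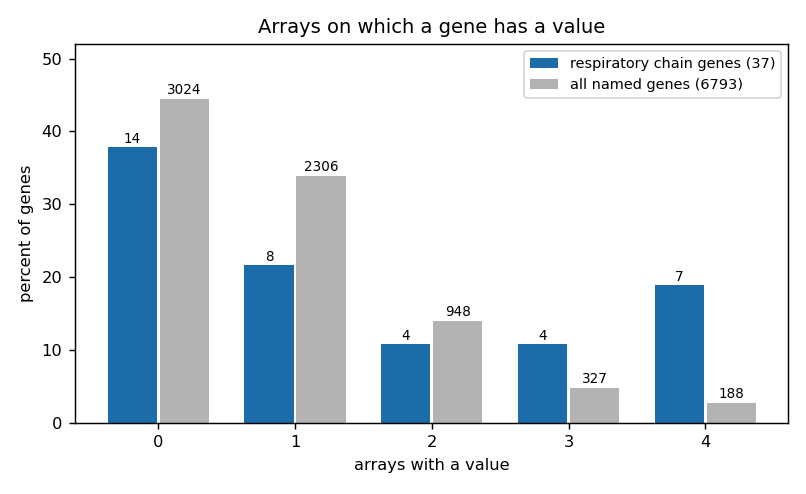
Percent of genes (vertical axis) by the number of arrays on which they have a value (horizontal axis), for the 37 respiratory chain genes (blue) and all 6793 named genes (grey), with the number of genes above each bar. Of the members 7 had a value on every array, against 188 of all genes.

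The members named as paralogues of another subunit were counted apart. Of 7 such genes, ND-24L, ND-51L2, COX6AL, COX6CL, COX7AL, ATPsynGL and ATPsynbetaL, 2 had a value, COX6AL and COX6CL, both on array 1 alone. Of the other 30 members 21 had one, as did 55.5% of all 6793 named genes. With 7 paralogues these are counts only, and the difference was not tested. The 9 without a value were ND-13B, ND-18, ND-19, ND-75, SdhC, SdhD, COX7A, ATPsynD and ATPsynO. Nothing is known from these arrays about the response of those 14 genes in all.

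No respiratory chain gene passed the test for a difference between drug-fed and normal-food heads. Of the 11 genes on at least 3 arrays 0 had an adjusted p under 0.05 in limma. Among all 967 genes and unnamed clones tested 13 (1.34%) did, 11 of them higher (1.14%) and 2 lower (0.207%). Before adjustment, p was under 0.05 for 1 member, ATPsynG, and for 117 of all features (12.1%). On the deposited values without centring, 0 of the 11 members and 4 of all features (0.414%) passed. The members' adjusted p lay between 0.359 and 0.941. In RNA from whole heads, fewer cells of a type and less RNA per cell could not be told apart for any of these genes.

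The ratios of these 11 genes were small. Their means lay between -0.15 for ND-ASHI and 0.36 for ATPsynG, with a median of 0.05, beside a median of 0.00406 over all 967. Above 0 were 9 of the 11, beside 51.5% of all, but with no array turned it would be 5 of the 11, beside 47.2% of all. The 95% intervals of the moderated fit ran from -0.49 at the lowest to 0.68 at the highest, or from 0.713-fold to 1.60-fold. Larger changes in either direction lay outside the interval of each gene. The intervals are not adjusted for the number of genes and hold under this reading and centring only, so larger changes are not excluded.

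**Figure D2:**
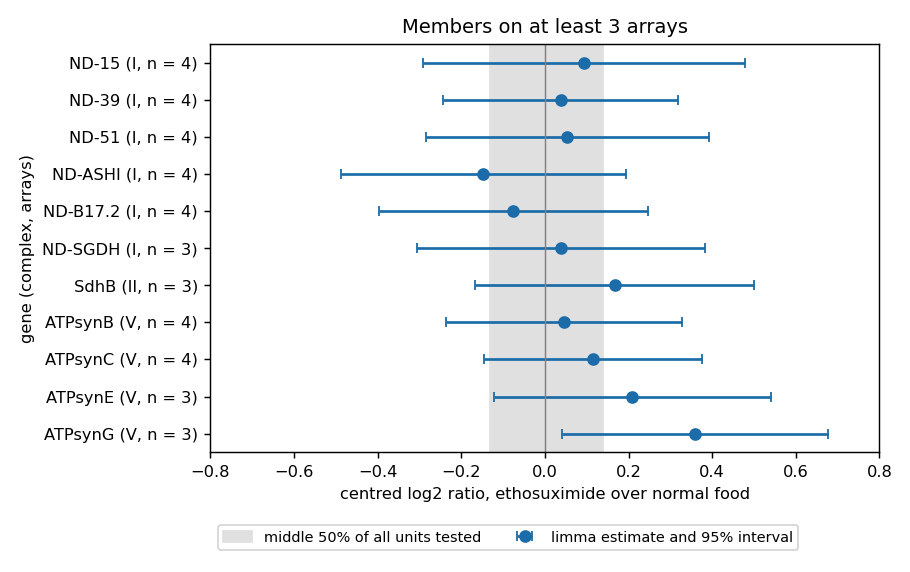
Mean centred log2 ratio of drug over normal food (horizontal axis) with its 95% interval from limma for the 11 respiratory chain genes on at least 3 arrays (rows, with complex and number of arrays), over the middle 50% of all 967 genes and unnamed clones tested (grey, -0.13 to 0.14). Of the 11 means 7 lie in the grey band, and the interval of ATPsynG alone leaves out 0.

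Complex I had 12 genes with a value, 6 of them on at least 3 arrays. It is shaped like an L, with an arm that reaches into the matrix and holds the site of NADH oxidation, and an arm in the membrane that pumps protons. The places given below are those known for the mammalian complex. ND-51, the subunit that binds NADH and the flavin, had centred log2 ratios of 0.07, -0.16, -0.24 and 0.54 on arrays 1 to 4. Array 4 stood highest and the values lay on both sides of 0, with a mean of 0.05 ± 0.35 (SD, n = 4). ND-39, an accessory subunit of the matrix arm, had ratios of 0.22, 0.15, 0.03 and -0.24 on arrays 1 to 4, a mean of 0.04 ± 0.20 (SD, n = 4). ND-B17.2, another accessory subunit of this arm, had ratios of -0.11, 0.0095, 0.28 and -0.48, a mean of -0.08 ± 0.31 (SD, n = 4). For none of these 3 genes was the mean larger than the spread between arrays.

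In the membrane arm, 2 genes split by dye orientation. ND-15, an accessory subunit, had centred ratios of -0.14 and -0.40 on arrays 1 and 2 and of 0.61 and 0.30 on arrays 3 and 4. ND-ASHI did the opposite, with 0.15 and 0.18 on arrays 1 and 2 against -0.48 and -0.44 on arrays 3 and 4. Their means were therefore near 0, at 0.09 ± 0.45 and -0.15 ± 0.36 (SD, n = 4 each). In a fit with a dye term beside the drug, the dye effects were -0.36 for ND-15 and 0.31 for ND-ASHI, with unadjusted p of 0.00876 and 0.0146 and limma adjusted p of 0.147 and 0.191. For the dye, p was under 0.05 before adjustment in 147 of all 967 features (15.2%) and after it in 22 (2.28%). If the swapped columns had already been turned, these numbers would be the drug ratios, -0.36 for ND-15 and 0.31 for ND-ASHI, with limma adjusted p of 0.516 each, and 0 of 967 features (0%) would pass. On such values without centring ND-ASHI, at 0.75, would pass (limma adjusted p = 0.0482), as would 36 of all 967 (3.72%). All 36 would be higher and 0 lower. These values keep the offsets of the columns, whose deposited medians over all clones were 0.73, 0.008, 0.18 and 0.59 on arrays 1 to 4.

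ND-SGDH, the third membrane-arm gene tested, had ratios of -0.11, -0.07 and 0.30 on arrays 2 to 4, a mean of 0.04 ± 0.22 (SD, n = 3). Its 2 clones were both measured on array 2 and gave 0.25 and -0.46 there. The clone with values on all 3 arrays had a mean of -0.08, so the sign of the gene's mean came from averaging the clones. ND-51 also joined 2 clones, 1 measured on array 1 and the other on arrays 2 to 4. They shared no array and could not be compared.

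The other 6 genes of complex I had values on 1 or 2 arrays, all above 0 on each array that measured them under this reading. Above 0 on arrays 1, 2 and 3 were 49.3%, 32.8% and 55.3% of all features. ND-42, ND-B22, ND-B18 and ND-B8 had values only on arrays with the drug in Cy5, and ND-13A only on array 3. For these genes dye and drug could not be told apart. With no array turned, ND-13A would be at -0.52 and the mean of ND-20 at -0.24. ND-20, which carries the iron-sulphur cluster that hands electrons to ubiquinone, had 0.03 on array 2 and 0.50 on array 3. ND-B8, an accessory subunit of the matrix arm, had 0.009 on array 1 and 0.26 on array 2. ND-42, an accessory subunit of the membrane arm, had 0.93 on array 1, or 1.91-fold, the highest value of any member on any array. It lay above 98.3% of all features on that array, and its duplicate spots gave 0.80 and 1.06. ND-B22, of the membrane arm, had 0.31 on array 1. ND-B18, of the same arm, had 0.0255 on array 2. ND-13A, of the matrix arm, had 0.52 on array 3, from spots at 0.11 and 0.92 that differed by more than those of any other member clone. A single array gives no spread between replicates for the last 4 of these genes.

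**Figure D3:**
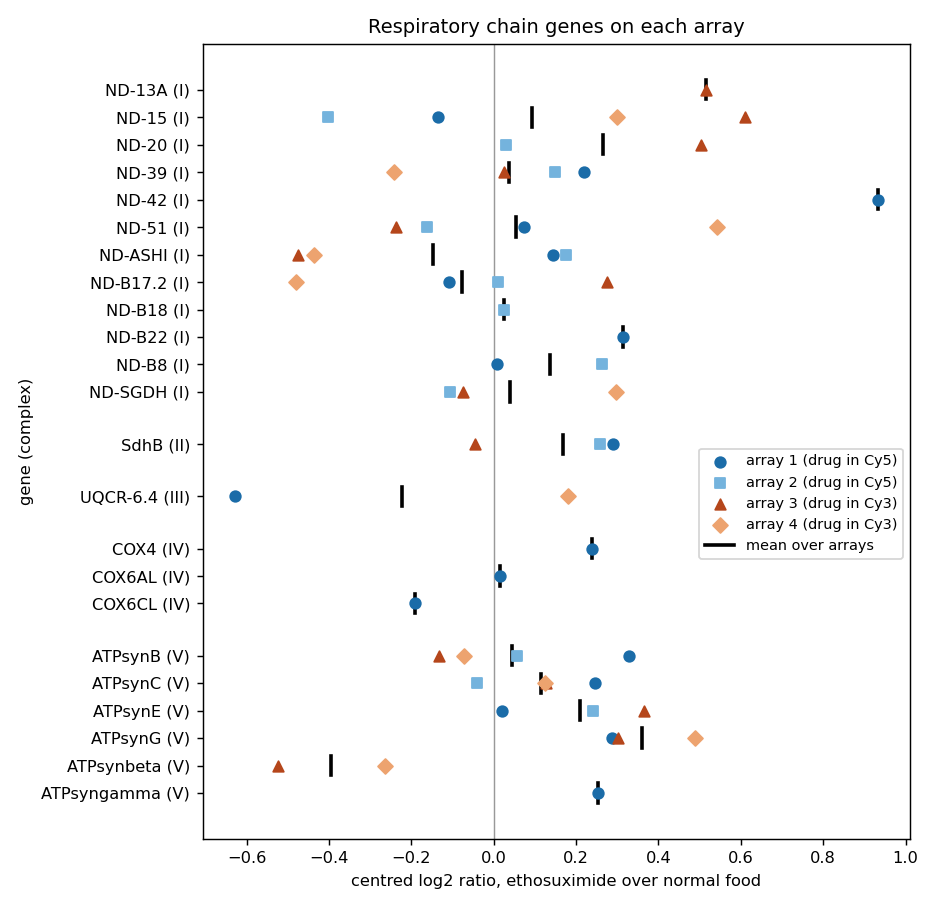
Centred log2 ratio of drug over normal food (horizontal axis) of the 23 respiratory chain genes with a value (rows, with their complex), on arrays 1 and 2 (blue) and on arrays 3 and 4 after turning (orange), with the mean over arrays as a black bar. ND-15, ND-ASHI, ATPsynB, SdhB and UQCR-6.4 have their blue and orange points on opposite sides of 0. The 3 points of ATPsynG and of ATPsynE lie above 0.

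Complexes II to IV were thinly covered. SdhB, the iron-sulphur subunit of succinate dehydrogenase, had centred ratios of 0.29, 0.26 and -0.05 on arrays 1 to 3, a mean of 0.17 ± 0.19 (SD, n = 3, limma adjusted p = 0.679). Arrays 1 and 2 lay close together and array 3 was lower. UQCR-6.4, a small subunit of complex III, had -0.63 on array 1 and 0.18 on array 4, so its arrays went both ways. On array 1 its duplicate spots stood at -0.92 and -0.34.

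All 3 genes of cytochrome c oxidase, complex IV, were measured on array 1 alone. COX4, a subunit with a part in regulation by ATP in mammals, had 0.24 there, from spots at -0.04 and 0.52. COX6AL and COX6CL, named for their likeness to subunits 6A and 6C, had 0.02 and -0.19. The values of COX4, COX6AL and COX6CL lay above 72.5%, 51.9% and 31.5% of all features on that array, with no replicate.

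ATP synthase had 6 genes with a value, and the means of the 4 on at least 3 arrays were all above 0 under this reading. With no array turned, ATPsynB would stay above 0, at 0.15, and the other 3 would lie below it, ATPsynC at -0.012, ATPsynE at -0.035 and ATPsynG at -0.17. ATPsynG, a subunit of the membrane part linked to pairing of the enzyme in yeast and mammals, had centred ratios of 0.29, 0.30 and 0.49 on arrays 1, 3 and 4. Its arrays lay closer together than those of any other member tested and all above 0, with a mean of 0.36 ± 0.11 (SD, n = 3), or 1.28-fold. Its unadjusted p was 0.0316 and its limma adjusted p 0.359, the 85th lowest p of 967, so the gene did not pass.

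ATPsynE, which lies beside subunit g in the membrane, had 0.02, 0.24 and 0.37 on arrays 1 to 3, a mean of 0.21 ± 0.18 (SD, n = 3, limma adjusted p = 0.566). ATPsynG and ATPsynE were the only 2 of the 11 tested members with 1 sign on every array, or 18.2%, beside 30.5% of all 967 features, under this reading. With no array turned it would be 4 others, ND-15, ND-ASHI, SdhB and ATPsynB, beside 25.5% of all features. ATPsynC, which forms the rotating ring in the membrane, had 0.25, -0.04, 0.13 and 0.13 on arrays 1 to 4, a mean of 0.11 ± 0.12 (SD, n = 4, limma adjusted p = 0.733). ATPsynB, of the stalk that holds the catalytic head in place, had 0.33, 0.06, -0.13 and -0.07, a mean of 0.04 ± 0.20 (SD, n = 4, limma adjusted p = 0.925).

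The genes of the catalytic head and central stalk were measured on fewer arrays. ATPsynbeta, the catalytic subunit, had -0.52 on array 3 and -0.26 on array 4, below 0 on both, with a mean of -0.39 ± 0.18 (SD, n = 2). It had no value on arrays 1 and 2, so dye and drug could not be told apart for it, and its sign depends on the turning of the columns. ATPsyngamma, the rotor shaft, had 0.25 on array 1, from spots at -0.13 and 0.64.

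The medians of the complexes were set side by side without a test. Over the means of all measured genes, the median was 0.07 for the 12 genes of complex I, 0.02 for the 3 of complex IV and 0.16 for the 6 of complex V. With no array turned, the medians would be 0.026 for complex I and 0.068 for complex V. Without array 1 that of complex V was 0.07, and with each array left out in turn that of complex I lay between 0.042 and 0.126. The single genes of complexes II and III stood at 0.17 and -0.22. Within complex I, the 6 measured genes of the matrix arm had a median of 0.09 and the 6 of the membrane arm 0.07, with 1 gene of each arm below 0. Over all 23 genes the median was 0.09 and 18 were above 0 (78.3%), beside a median of -0.05 and 44.5% above 0 for all 6070 genes and unnamed clones with a value. With no array turned, the median would be 0.0255 and 13 would be above 0 (56.5%), beside a median of -0.073 and 41.5% for all. The 2 sets differ in coverage. Values on at least 3 arrays, the set used for centring, were held by 11 of the 23 members and 967 of the 6070 features. In that set 9 of the 11 members and 51.5% of all features were above 0 under the reading used here. No test was made of the members as a group, since they are not replicates.

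By array, the complex I median was 0.11, 0.03, 0.15 and 0.03 on arrays 1 to 4 and the complex V median 0.25, 0.06, 0.13 and 0.03. With no array turned, the medians on arrays 3 and 4 would be -0.15 and -0.03 for complex I and -0.13 and -0.03 for complex V. The SD over arrays of the median was 0.06 for complex I and 0.10 for complex V. The median of all members was 0.18, 0.03, 0.08 and 0.13 on arrays 1 to 4, beside -0.00575, -0.15, 0.06 and 0.04 for all features on the same array. The share of members above 0 was 77.8%, 69.2%, 57.1% and 54.5% in the same order, beside 49.3%, 32.8%, 55.3% and 54.7% of all features. All features here include those on 1 or 2 arrays, which were not used to set the centre. Of the tested members alone, 8 of 10, 6 of 10, 6 of 11 and 5 of 9 were above 0 on arrays 1 to 4. The median of all tested features was 0 on each array by the centring. On arrays 3 and 4 the members lay on both sides of 0, in shares close to those of all features.

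**Figure D4:**
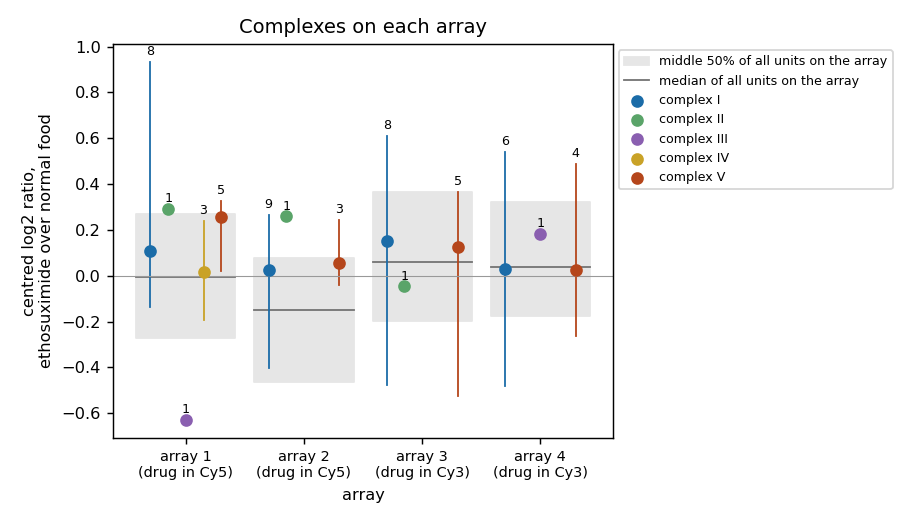
Median (point) and range (line) of the centred log2 ratios of drug over normal food (vertical axis) in each complex on each array (horizontal axis), with the number of genes above, over the middle 50% (grey band) and median (grey line) of all features on that array. The medians of complexes I and V lie in the band on every array, between 0.03 and 0.25.

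With the dyes swapped, signs could be compared between orientations. Of the 13 genes measured in both orientations 5 had the same sign on arrays 1 and 2 as on arrays 3 and 4 after turning (38.5%), against 50.1% of all 1209 features measured in both. The 5 were ND-20, ND-B17.2, ATPsynC, ATPsynE and ATPsynG, and 3 of these belong to the membrane part of ATP synthase. On arrays 1 and 2, 15 of 21 genes had a mean above 0, with a median of 0.13. Of all features, which include those on 1 or 2 arrays not used to set the centre, 42.3% did, with a median of -0.07. These values are the same whether or not the swapped columns were turned before deposit. Both arrays had the drug sample in Cy5, so there dye and drug could not be told apart. On arrays 3 and 4 after turning, 9 of 15 genes had a mean above 0, with a median of 0.13. Of all features there 57.65% did, with a median of 0.08.

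**Figure D5:**
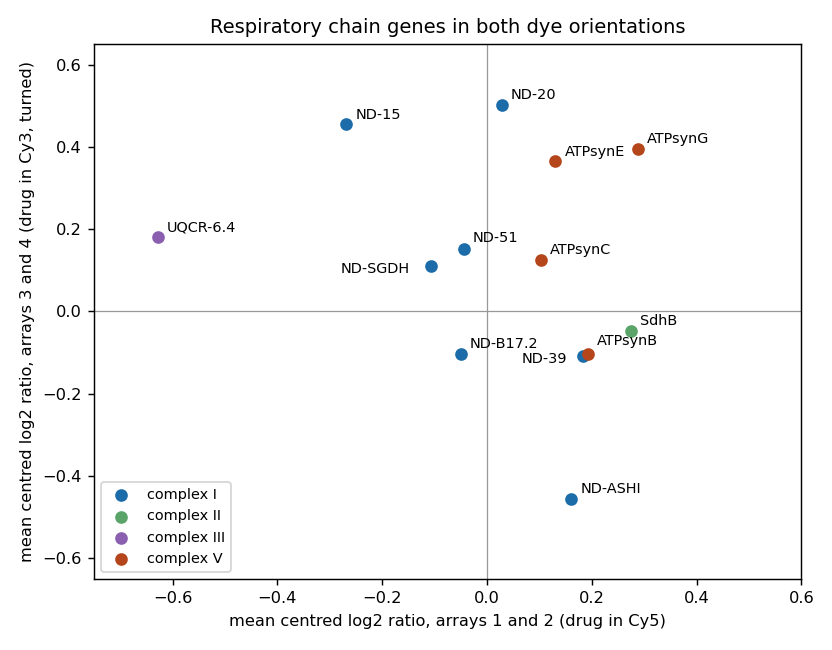
Mean centred log2 ratio on arrays 1 and 2 (horizontal axis) and on arrays 3 and 4 after turning (vertical axis) for the 13 respiratory chain genes measured in both dye orientations, coloured by complex. The 5 genes with the same sign in both lie at the upper right and lower left, and ND-15 and ND-ASHI lie farthest out among the tested genes with opposite signs.

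Duplicate spots of a clone show the error within an array. Over 57 values of member clones with both spots, the median difference between the spots was 0.15, and the largest was 0.81. The SD over arrays of the 11 tested members lay between 0.11 for ATPsynG and 0.45 for ND-15, with a median of 0.20, beside 0.25 over all 967 features.

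Other mitochondrial genes were thinly covered. Of 25 chain subunits outside the naming rule, 5 were on the array and 3 had a value, none on 3 arrays. These were Cyt-c1 of complex III, at 0.28 and 0.15 on arrays 1 and 2, levy, the fly subunit 6A of complex IV, at -0.28 on array 2, and SdhAL at -0.17 on array 1. Of 22 assembly factors 9 were on the array and 6 had a value, again none on 3 arrays, with a median of -0.09. Of 48 mitochondrial ribosomal protein genes on the array, 25 had a value, with a median of -0.04, and 3 were tested, mRpL40, mRpS24 and mRpS29, at -0.21, -0.09 and -0.03. None of them passed.

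Of the mitochondrial transport genes, Mpc1 of the pyruvate carrier and the phosphate carrier Mpcp2 were tested, at 0.34 ± 0.52 and -0.10 ± 0.32 (SD, n = 3 each). Of the citrate cycle list, the cytosolic malate dehydrogenase gene Mdh1 and the glutamate dehydrogenase gene Gdh were tested, at 0.13 ± 0.23 (SD, n = 4) and -0.10 ± 0.04 (SD, n = 3). None of these 4 genes passed, with limma adjusted p from 0.508 for Mpc1 to 0.877 for Mpcp2. None of the 6 measured genes of uncoupling and redox defence had a value on 3 arrays. Sod2 had 0.25 and -0.64 on arrays 1 and 2, and Gtpx had -0.71 on array 2. Trx2 and Ucp4A had 0.53 and 0.34 on array 1. Prx3 and Trxr1 are given under other observations.

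Cell types rich in mitochondria were followed by their markers. Of 13 muscle markers 7 were on the array, 4 had a value and 3 were tested, Act88F, Mlc2 and Act79B, with ratios of -0.43, -0.21 and -0.13. With no array turned, these would be 0.33, 0.042 and 0.24. TpnC4, not tested, had -0.76 on array 1. Of 13 photoreceptor markers 9 were on the array, 8 had a value and 6 were tested, with a median of -0.28 and 1 above 0. Among them chp, inaD, inaC and Arr1 were at -0.45, -0.34, -0.29 and 0.27. With no array turned, they would be at 0.098, 0.29, 0.15 and 0.16. Of 17 testis markers, which whole heads should lack, 6 were on the array and 1 had a value, ocn, at 0.23, 0.34 and 0.74 on arrays 1 to 3. None of these markers passed, and their part in the respiratory chain ratios was not tested. Of 11 neuronal markers 3 had a value and 2 were tested, Sap47 and Rab3, at 0.18 and -0.11. The third, nSyb, had a mean of 0.13. Of 12 fat body markers 8 had a value and 2 were tested, apolpp and Npc2b, at 0.07 and -0.25. Of those not tested, Yp1, Fbp2 and Lsp2 had means of -1.07, -0.33 and -0.10. LpR2, Lsd-1 and Yp2 had means of 0.25, 0.14 and 0.06. Of 6 glial markers 2 had a value, Gs2, tested at -0.35, and moody, at -0.15 on array 1 and 1.32 on array 4. Of 12 gut markers 4 had a value, and the 1 tested, Amyrel, had 0.20, -1.16 and 1.24 on arrays 1 to 3. The other gut markers, Jon25Bi, LManII and Npc2f, had means of 0.92, -0.27 and -0.18. None of the tested ones passed, and these lists cover too few genes to follow the cell types.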

How the data were processed

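Heads of drug-fed and normal-food flies were measured on 4 spotted cDNA arrays. The deposited values, 1 column per array, were taken as log2 ratios, and log2 is an assumption. Per the series' design text, the authors quantified scans with GenePix Pro 6.0, normalized ratios in Acuity 4.0 and filtered spots on signal to noise (3 or more), regression R2 (0.6 or more) and saturated pixels (under 3%). The genome build is not given in the sources used here, and no coordinates were used.

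Neighbouring spots were averaged into 13824 clones (7558 of 7558 named pairs had the same gene), and then clones into genes on each array. Of 27648 spots, 15116 had 1 gene symbol, 102 several and 12430 none. Through the Entrez number, 14894 matched a current symbol in RefSeq's Release 6 table. The 515 genes and 452 unnamed clones on at least 3 arrays were fitted with limma 3.58.1 in R 4.3.3 (one-class, two-sided, Benjamini-Hochberg over all 967, threshold 0.05), on values turned on arrays 3 and 4 and centred per array. Centring was used because members were measured on different arrays. Nothing says more of the replicates than that each array had its own pools. The fit was tested on simulated data of 967 units. It called 50% of changes of 0.5 in log2 ratio, 90% of those of 1 and 96% of those of 2, with 10 false calls. Such changes were planted in 50, 100 and 50 units, many more than the 13 features called in the data. The simulated noise held no dye effect. These shares can therefore overstate what the fit would call in the data.

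Members and lists were chosen with earlier results of these data known. All measured members are named, and of the other lists up to 4 tested genes by lowest p. The 3 chain subunits outside the rule, the markers and redox genes not tested, and the genes under other observations were named after their values were seen. Alternatives were no centring, no turning, another centre, each array left out, clones apart, both spots required, a dye term, other array minimums, the mean over genes and an unmoderated test.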

Additional observations from a re-analysis of the deposited data

How the results depend on the processing

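No paired analysis was possible beyond the ratio itself, because each ratio already pairs the 2 pools of an array. In limma 0 of the tested members passed under every alternative but 1. That one, with no array turned and no centring, was added after seeing the data, and ND-ASHI passed at 0.75 (adjusted p = 0.0482), beside 36 of 967 features (3.72%). All 36 were higher and 0 lower, with the offsets of the columns left in. As processed above, the count over all features was 13. It was 4 without centring, 0 with no array turned (83 with an unadjusted p under 0.05), 29 with a dye term, 0 in the unmoderated test (101 unadjusted), and from 5 to 21 when arrays were left out in turn, lowest without array 1 and highest without array 2. Without array 4 it was 7. With no array turned, the sign changed for ND-15 (-0.36), ND-51 (-0.098), ND-ASHI (0.31), ND-B17.2 (0.026), ND-SGDH (-0.11), ATPsynC (-0.012), ATPsynE (-0.035) and ATPsynG (-0.17). Without turning or centring ND-B17.2 was at 0.47. ND-SGDH was at -0.20 without centring and -0.082 by its longer-measured clone. With arrays left out in turn the sign changed for ND-15 (-0.079 to 0.26), ND-39 (-0.023 to 0.13), ND-51 (-0.11 to 0.15), ND-B17.2 (-0.19 to 0.059), ND-SGDH (-0.091 to 0.11) and ATPsynB (-0.050 to 0.10). Without centring, the medians of complexes I, II and IV and of all members were 0.14, 0.39, 0.75 and 0.22, since columns with an offset enter them. The median of all members was 0.0255 with no array turned, and that of complex I 0.14 with another centre and 0.18 as a mean over genes. For these shifts other than that of no centring, the cause was not tested. Requiring both duplicate spots changed no member value.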

Other observations

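Of 16 genes of the mitochondrial lists measured on arrays 1 and 2 alone, 3 are given here, chosen after their values were seen. Letm1, whose product exchanges cations across the inner mitochondrial membrane, had centred log2 ratios of -1.52 and -0.95, above 0.428% and 8.46% of all features on these arrays. Prx3, the mitochondrial peroxiredoxin, had 1.21 and 0.86, above 99.5% on both. Trxr1, a thioredoxin reductase, had 0.47 and 0.39, above 88.3% and 94.7%. The redox list was not higher throughout, as the values of Sod2 and Gtpx given above show. Both arrays carried the drug sample in Cy5, so for these genes dye and drug could not be told apart, and none was tested.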
